A study of Rattus norvegicus with 8 samples.

Results

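Genes of the cell cycle and of DNA replication were followed in left ventricular muscle of 8 male rats aged 2 months. A list of 45 genes covers mitosis, replication, the passage from G1 to S phase and the CDK inhibitors of the Cip/Kip family. Of these, 43 were measured, among 17309 genes in all; Ccnd3 and Birc5 were not analysed here. The 43 genes comprise 24 of mitosis, 11 of replication, 5 of the step from G1 to S and 3 inhibitors, and a gene counted as measured when at least 1 probe set named it alone. They rest on 526 probe sets, between 1 and 26 per gene.

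RNA of 4 PD5 animals (numbers 207, 209, 210 and 212) and 4 SHR animals (213, 215, 218 and 219) was hybridised to whole-transcript arrays, 1 array per animal. SHR is the spontaneously hypertensive rat. PD5 is a minimal congenic strain on that background, so both groups share the SHR genome except for a small segment of another strain (its extent was not used here). Both strains were bred in-house, ate standard chow and received no treatment. Values are log2 signals as deposited by the authors, and a gene's value is the mean of its probe sets. The mean of 8 measured cardiomyocyte markers lay between 12.46 and 12.55 in every animal. Each sample is a piece of tissue with many cell types, so fewer cells of a type and less RNA per cell cannot be told apart.

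A dividing cell commits itself in G1, when cyclin D and cyclin E kinases release E2F factors. It then copies its DNA with the MCM helicase, the clamp PCNA and enzymes that supply nucleotides, and finally separates its chromosomes with cyclin B and CDK1, the Aurora and Polo kinases, kinesins and the proteins of the cleavage furrow. Heart muscle cells of rodents largely leave the cycle in the first weeks after birth and may copy DNA or divide nuclei without dividing the cell, whereas endothelial cells, fibroblasts and macrophages of the heart keep dividing at a low rate. Genes of G1 and S phase commonly carry E2F sites in their promoters, and genes of mitosis commonly carry the cell cycle homology region, or CHR, together with CCAAT boxes.

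Many of the promoters of these genes carried letters of those elements. Promoter sequences of 32 of the 43 genes were taken from RefSeq (build GRCr8), each 300 bases long, from 250 bases before the gene's start. The letters TTTGAA (CHR), CCAAT (the box bound by NF-Y) and TTTCCCGC, TTTCGCGC, TTTGCCGC or TTTGGCGC (E2F) were searched on both strands, and overlapping matches were kept. The CHR letters stood in 14 of 20 mitosis promoters (70.0%), in 1 of 9 replication promoters (11.1%) and in 18.3% of all 33469 promoters. The E2F letters stood in 7 of 9 replication promoters (77.8%), in 1 of 20 mitosis promoters (5%) and in 2.14% of all. CCAAT was found in 75.0% of mitosis promoters, in 77.8% of replication promoters and in 37.5% of all, and CHR and CCAAT occurred together in 11 of the 20 mitosis promoters against 7.41% of all promoters. No match was found in the promoters of Aurka, Bub1, Cdkn1a and Ccne1, the last being the 1 promoter read for the step from G1 to S. Of the 2 inhibitor promoters 0 had CHR or E2F letters. The matches describe letters and not bound sites.

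Promoters of 5 genes are printed to show both layouts, with matched letters in capitals: Cdk1, Mki67 and Ect2 for mitosis, and Mcm5 and Mcm7 for replication.
Cdk1, chr20:19265043-19265342, plus strand: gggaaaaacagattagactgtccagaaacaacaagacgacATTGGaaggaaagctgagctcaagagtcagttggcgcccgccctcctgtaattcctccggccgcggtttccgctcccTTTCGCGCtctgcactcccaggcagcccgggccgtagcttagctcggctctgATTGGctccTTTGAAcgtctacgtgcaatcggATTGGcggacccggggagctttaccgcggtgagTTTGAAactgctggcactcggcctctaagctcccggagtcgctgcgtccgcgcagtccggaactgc
Mki67, chr1:199952544-199952843, minus strand: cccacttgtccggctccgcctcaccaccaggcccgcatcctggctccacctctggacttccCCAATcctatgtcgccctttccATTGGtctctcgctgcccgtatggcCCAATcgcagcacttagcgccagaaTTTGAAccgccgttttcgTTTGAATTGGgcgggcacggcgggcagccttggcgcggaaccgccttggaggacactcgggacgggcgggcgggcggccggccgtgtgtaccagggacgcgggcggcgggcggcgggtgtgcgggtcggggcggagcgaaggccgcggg
Ect2, chr2:111966577-111966876, minus strand: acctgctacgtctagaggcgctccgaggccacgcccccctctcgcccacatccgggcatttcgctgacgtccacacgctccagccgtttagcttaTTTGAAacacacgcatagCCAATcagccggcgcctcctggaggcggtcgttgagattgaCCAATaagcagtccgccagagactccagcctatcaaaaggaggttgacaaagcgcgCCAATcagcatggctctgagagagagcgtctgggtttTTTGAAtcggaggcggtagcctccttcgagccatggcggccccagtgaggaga
Mcm5, chr19:13488563-13488862, plus strand: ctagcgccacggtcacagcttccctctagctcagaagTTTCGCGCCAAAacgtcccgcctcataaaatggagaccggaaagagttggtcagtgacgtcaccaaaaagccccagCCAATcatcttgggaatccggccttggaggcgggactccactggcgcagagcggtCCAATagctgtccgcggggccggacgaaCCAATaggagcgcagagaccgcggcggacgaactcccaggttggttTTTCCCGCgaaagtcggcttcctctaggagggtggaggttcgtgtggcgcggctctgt
Mcm7, chr12:22163129-22163428, minus strand: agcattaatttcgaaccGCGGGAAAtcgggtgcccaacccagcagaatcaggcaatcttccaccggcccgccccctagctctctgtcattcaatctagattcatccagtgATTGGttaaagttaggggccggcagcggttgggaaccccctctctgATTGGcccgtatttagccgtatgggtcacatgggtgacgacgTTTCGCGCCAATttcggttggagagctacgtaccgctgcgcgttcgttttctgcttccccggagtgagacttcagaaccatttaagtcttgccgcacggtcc
In these sequences, which run 5′ to 3′ along the gene, ATTGG is CCAAT on the other strand, and the capitals GCGGGAAA and GCGCCAAA hold an E2F match on the other strand. The Cdk1 promoter had CHR letters 16 bases before the start and again 72 before it, with reversed CCAAT boxes upstream of each, and was the 1 mitosis promoter with E2F letters. In Mki67 a CHR match and a reversed CCAAT shared letters, and in Mcm7 an E2F match and a CCAAT did. Mcm5 had E2F letters directly before the start and an overlapping pair of matches farther upstream.

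None of the 43 genes passed the test between the strains. Across all genes 9 of 17309 passed (0.052% called, limma, adjusted p under 0.05), and the smallest adjusted p among these 43 was that of Ect2 (adjusted p = 0.128). At an unadjusted limma p under 0.05 there were 2 of the 43, Ect2 and Mcm5, where all genes gave 5.68%, a share near the background. The direction was less even: 35 of the 43 had a log2 difference above 0, PD5 higher, against 49.9% of all genes, with a median of 0.09 against 0.00. In 3 genes, Ect2, Mcm5 and Tyms, every PD5 animal lay above every SHR animal, and 1.58% of all genes did so. In 0 of the 43 did every PD5 animal lie below, where 1.88% of all genes did. The genes were chosen with earlier results known and vary together, so these counts describe the list and carry no test.

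**Figure D1:**
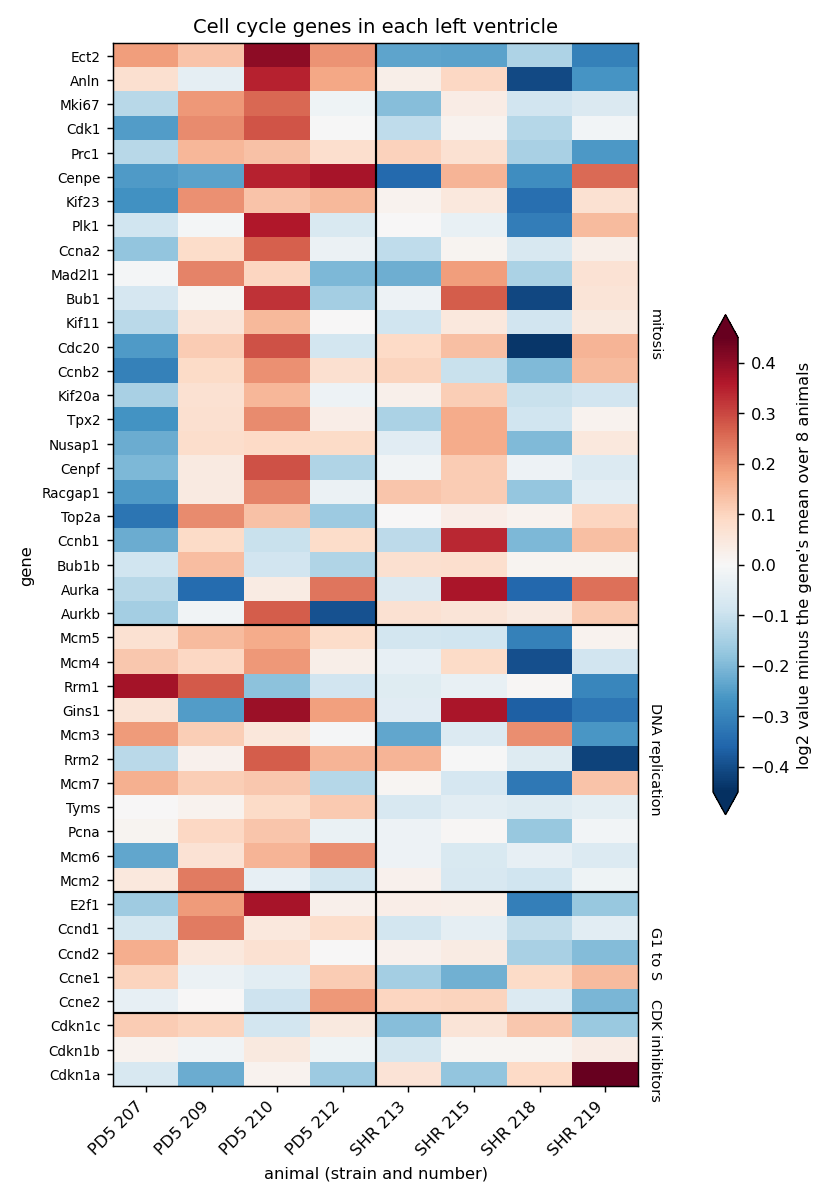
Log2 value of each of 43 genes (rows, grouped by role) in each of 8 animals (columns, PD5 left of the line), minus the gene's mean over the animals; colours stop at 0.45 in either direction. PD5 210 was highest in 15 of 24 mitosis genes and PD5 207 lowest in 11 of them, and in the replication rows SHR 218 was lowest in 6 of 11.

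The 11 replication genes shared a direction, and none passed the test. All 11 had a log2 difference above 0, from 0.08 in Mcm2 to 0.23 in Mcm5, with a median of 0.16. The mean over the 11 genes was 7.16, 7.18, 7.22 and 7.14 in PD5 207, 209, 210 and 212, and 7.06, 7.10, 6.96 and 6.97 in SHR 213, 215, 218 and 219. The strains therefore did not overlap in this mean, which was 7.18 ± 0.03 for PD5 against 7.02 ± 0.07 for SHR (SD, 4 animals a strain). In the mean of 44 further replication genes, read below, the strains did overlap. SHR 218 was lowest in 6 of the 11 genes (54.5%), while it was lowest in 18.2% of all genes. Of the 139 probe sets of these genes, 106 were higher in PD5 (76.3%, against 49.1% of all probe sets that name 1 gene). The median was 0.11 without PD5 210 and also without SHR 218. The count stayed at 11 of 11 with any one array left out, and was 10 of 11 without both PD5 210 and SHR 219, a choice made after the data were seen, and 8 of 11 with the brightest probe set per gene.

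The MCM genes encode the 6 subunits of the helicase that opens DNA at origins. Mcm5 was at 6.72, 6.79, 6.82 and 6.73 in PD5 and at 6.57, 6.56, 6.35 and 6.66 in SHR, in the order of animal numbers used throughout. The groups did not overlap, and SHR 218 lay lowest. The log2 difference was 0.23 (SE 0.08, 95% interval 0.06 to 0.41, adjusted p = 0.753), with 15 of 18 probe sets higher in PD5. With the median of its probe sets it was 0.11, and with the brightest 0.07. Mcm4 was at 8.05, 8.02, 8.12 and 7.95 in PD5 and at 7.89, 8.01, 7.53 and 7.84 in SHR, where SHR 215 lay among the PD5 animals. Its difference was 0.22 (SE 0.10, adjusted p = 0.892), and 16 of 18 probe sets were higher in PD5. It was 0.12 when SHR 218 was left out, and -0.05 on the brightest probe set alone. The other helicase genes were at 0.17 (Mcm3), 0.13 (Mcm7), 0.10 (Mcm6) and 0.08 (Mcm2), all with groups that overlapped and intervals that included 0.

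Enzymes of nucleotide supply lay on the same side. Tyms, which encodes thymidylate synthase, was at 8.84, 8.86, 8.92 and 8.96 in PD5 and at 8.77, 8.79, 8.78 and 8.79 in SHR. All 4 PD5 values lay above the SHR values, which spanned little. The log2 difference was small, 0.11 (SE 0.06, 95% interval -0.02 to 0.24, adjusted p = 0.914), and 0.37 on the brightest probe set. Rrm1 and Rrm2, the large and small subunits of ribonucleotide reductase, were at 0.19 and 0.16, and Rrm1 rests on 1 probe set. Pcna, the sliding clamp, was at 0.10 (SE 0.07) and Gins1, a subunit of the GINS complex that activates the helicase, at 0.19 (SE 0.18). All 4 had overlapping groups.

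**Figure D2:**
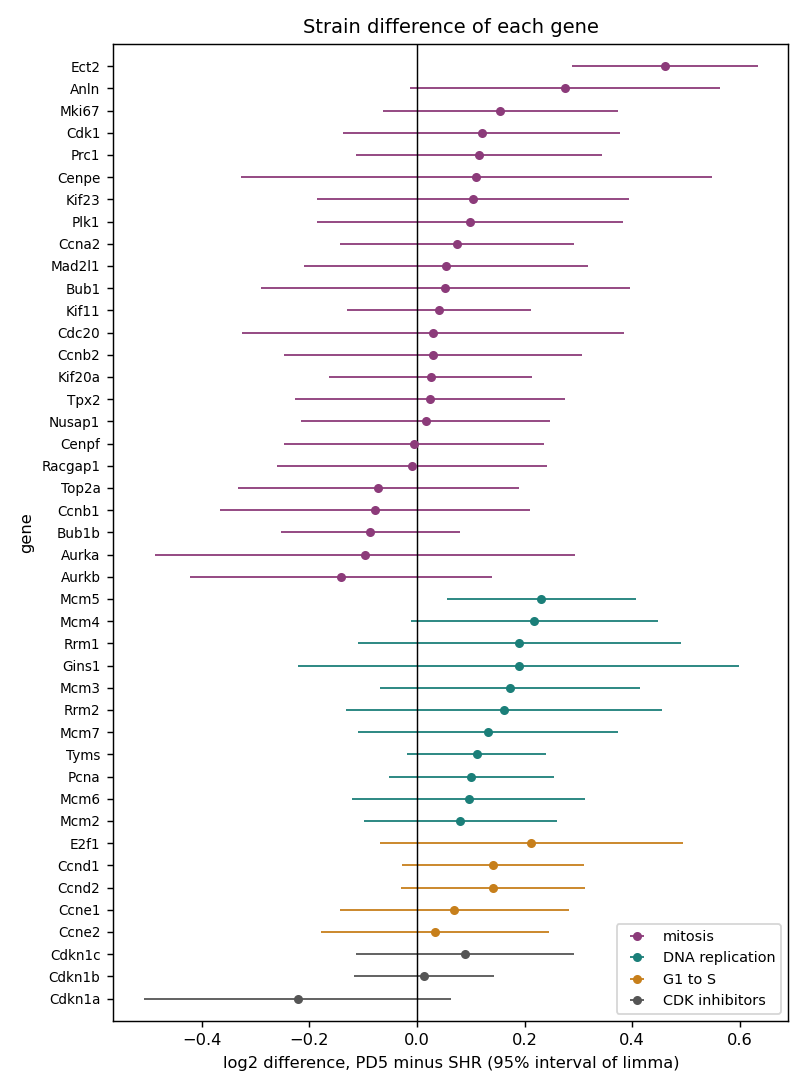
Log2 difference between the strains (PD5 minus SHR, points) with its 95% interval from limma (bars) for each gene, ordered within its role. The 11 replication genes all lie to the right of 0, the mitosis genes lie on both sides, and the intervals of Ect2 and Mcm5 do not include 0.

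Mitosis genes lay on both sides of 0. Of 24, 17 were higher and 7 lower in PD5, with a median log2 difference of 0.04, 0 passed, and 153 of their 319 probe sets were higher (48.0%). The count of 17 rested on single arrays: it was 8 without PD5 210 and 11 without SHR 218, with medians of -0.02 and -0.0026. Levels instead varied between animals of both strains. Their mean was 6.58, 6.81, 6.94 and 6.74 in PD5 and 6.70, 6.84, 6.56 and 6.76 in SHR, so that PD5 207 and SHR 218 lay lowest and PD5 210 highest. The within-strain SD of a mitosis gene had a median of 0.18, against 0.15 for replication genes and 0.14 for all genes.

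Ect2 had the smallest p of the 43 genes. It encodes the exchange factor that activates RhoA at the cleavage furrow. PD5 animals read 5.75, 5.69, 5.96 and 5.76, and SHR animals 5.32, 5.32, 5.42 and 5.25. The groups were far apart relative to their spread, at 5.79 ± 0.12 against 5.33 ± 0.07 (SD, 4 animals a strain). The log2 difference was 0.46 (SE 0.08, 95% interval 0.29 to 0.63, 1.38-fold), and limma's adjusted p over all genes was above the threshold (adjusted p = 0.128). Of its 6 probe sets 5 were higher in PD5, with differences from -0.16 to 1.25. The 1.25 came from a dim probe set (mean 4.09), the dimmest (mean 3.40) gave 0.555 (SE 0.56), and the others ranged from -0.16 to 0.61. Summarising the 6 probe sets by their median gave 0.08 (adjusted p = 0.995) and by the brightest alone 0.61 (adjusted p = 0.879). The size of the difference thus depended on the summary.

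Other genes of the furrow had smaller differences or wider spread. Anln, the scaffold anillin, was at 6.27, 6.16, 6.54 and 6.37 in PD5 and 6.22, 6.29, 5.79 and 5.93 in SHR animals. The groups overlapped, with SHR 218 and SHR 219 low, and the difference was 0.28 (SE 0.13, adjusted p = 0.886). With one array left out in turn it ranged from 0.19 to 0.35, and with the median of the probe sets it was 0.01. Racgap1, which binds Ect2, was at -0.01 (SE 0.11), its kinesin partner Kif23 at 0.10 (SE 0.13), the midzone bundler Prc1 at 0.12 (SE 0.10) and the kinesin Kif20a at 0.03 (SE 0.08).

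**Figure D3:**
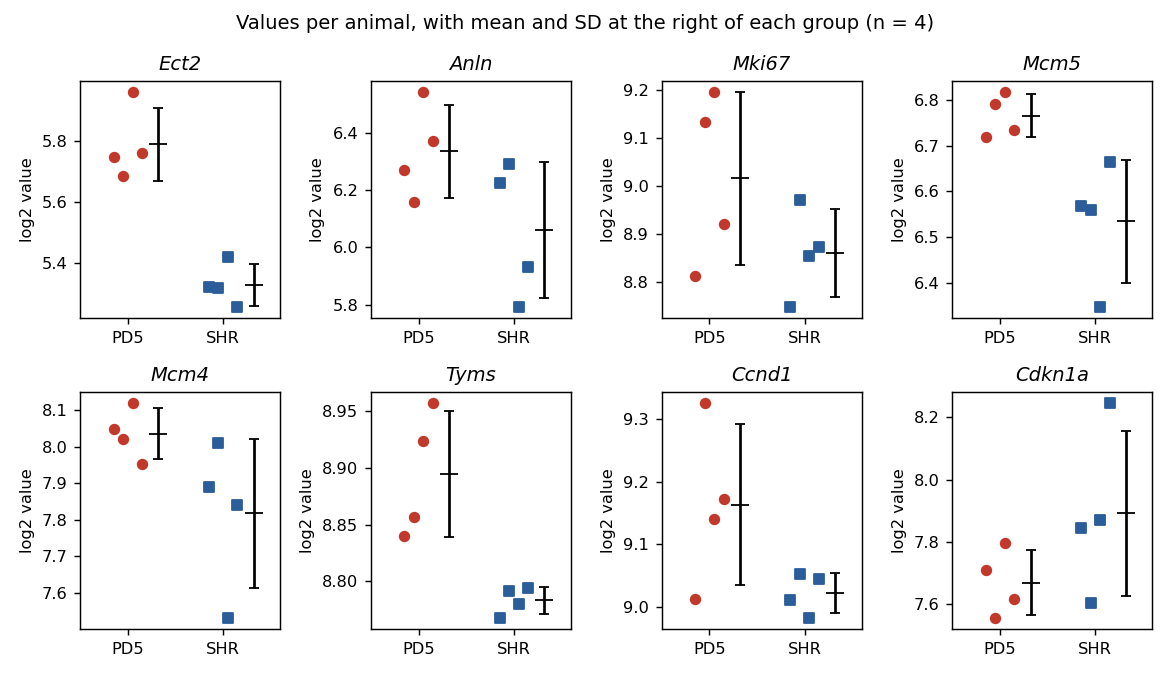
Log2 value of 8 genes in each animal (points; PD5 circles, SHR squares), with the mean and SD of 4 animals beside each group; each panel has its own axis. Ect2, Mcm5 and Tyms show no overlap between the strains, and the other 5 genes overlap.

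Kinases and cyclins of mitosis lay on both sides of 0. Mki67, the usual marker of cycling cells, was at 8.81, 9.13, 9.197 and 8.92 in PD5 and 8.75, 8.97, 8.85 and 8.87 in SHR. PD5 209 and PD5 210 were high and the other PD5 animals lay within the SHR range, for a difference of 0.16 (SE 0.10, 95% interval -0.06 to 0.37, adjusted p = 0.966). It was 0.09 without PD5 210 and -0.03 on the brightest probe set. Cdk1, the mitotic kinase, was at 0.12, and its cyclins Ccna2, Ccnb1 and Ccnb2 were at 0.07, -0.08 and 0.03. The kinases Aurka and Aurkb were at -0.10 and -0.14, and Plk1 at 0.10. Intervals of these 8 genes all included 0.

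The remaining mitosis genes fell on both sides of 0 with overlapping groups. Spindle checkpoint genes were at 0.05 (Bub1), -0.09 (Bub1b) and 0.05 (Mad2l1), and Cdc20, which activates the anaphase-promoting complex, was at 0.03. Of the spindle genes, Tpx2 was at 0.02, Nusap1 at 0.02 and the motor Kif11 at 0.04. The kinetochore genes Cenpe and Cenpf were at 0.11 and -0.01, and Top2a, the topoisomerase that untangles chromosomes, at -0.07. The widest of these intervals, that of Cenpe, ran from -0.33 to 0.55.

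Regulators of entry into S phase lay above 0. All 5 measured genes, Ccnd1, Ccnd2, Ccne1, Ccne2 and E2f1, had differences between 0.03 and 0.21, with a median of 0.14, and 0 passed. Ccnd1, a cyclin that partners CDK4 and CDK6, was at 9.01, 9.33, 9.14 and 9.17 in PD5 and 9.01, 9.05, 8.98 and 9.04 in SHR. In it 3 PD5 animals lay above all SHR animals and PD5 207 lay among them (0.14, SE 0.08, adjusted p = 0.924), and without PD5 209 the difference was 0.09. Ccnd2 was at 11.59, 11.47, 11.50 and 11.43 in PD5 and 11.45, 11.47, 11.28 and 11.23 in SHR. PD5 207 lay highest and SHR 218 and SHR 219 lowest, with overlap between the strains. The difference was again 0.14 (SE 0.08, adjusted p = 0.925), with all 7 probe sets higher in PD5 and 0.03 on the brightest. E2f1, the transcription factor gene, was at 5.80, 6.15, 6.33 and 5.98 in PD5 and 5.99, 5.98, 5.65 and 5.79 in SHR, a difference of 0.21 (SE 0.12, adjusted p = 0.956) with overlapping groups, and of 0.12 without PD5 210. Ccne1 and Ccne2, the E cyclins, were at 0.07 and 0.03, with 5 of 12 and 6 of 14 probe sets higher in PD5. With the median of its probe sets Ccne1 was at -0.21. Of the 53 probe sets of the 5 genes, 35 were higher in PD5. The mean of the 5 genes ran from 7.85 to 7.94 in PD5 and from 7.75 to 7.84 in SHR, without overlap.

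The inhibitors lay on both sides of 0, and 0 of 3 passed. Cdkn1a, which encodes p21, was at 7.71, 7.56, 7.80 and 7.62 in PD5 and 7.84, 7.60, 7.87 and 8.25 in SHR. SHR 219 stood highest, SHR 215 lay among the PD5 animals, and the difference was -0.22 (SE 0.13, 95% interval -0.51 to 0.06, adjusted p = 0.948). Without SHR 219 it was -0.10. Cdkn1b, which encodes p27, was at 9.56, 9.52, 9.58 and 9.52 in PD5 and 9.46, 9.54, 9.55 and 9.57 in SHR, a difference of 0.01 with an interval from -0.12 to 0.14. Cdkn1c, which encodes p57, was at 6.75, 6.74, 6.56 and 6.68 in PD5 and 6.45, 6.70, 6.76 and 6.47 in SHR (0.09, SE 0.09, adjusted p = 0.989), and its difference was -0.02 with the median of the probe sets.

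Mitosis genes varied together across animals. Over the 276 pairs of the 24 genes the median Pearson r across 8 animals was 0.53, and 93.1% of the pairs were above 0, while all pairs of genes on the array had a median of 0.01 and 50.7% above 0. With the strain mean taken out of each gene the median within mitosis was 0.56. For replication genes it was 0.27 over 55 pairs, and -0.02 with the strain mean taken out. Pairs of a mitosis and a replication gene had a median of 0.29. It was 0.27 with the strain mean taken out and 0.15 without PD5 210. These values share the same 8 arrays and are descriptions without a test.

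**Figure D4:**
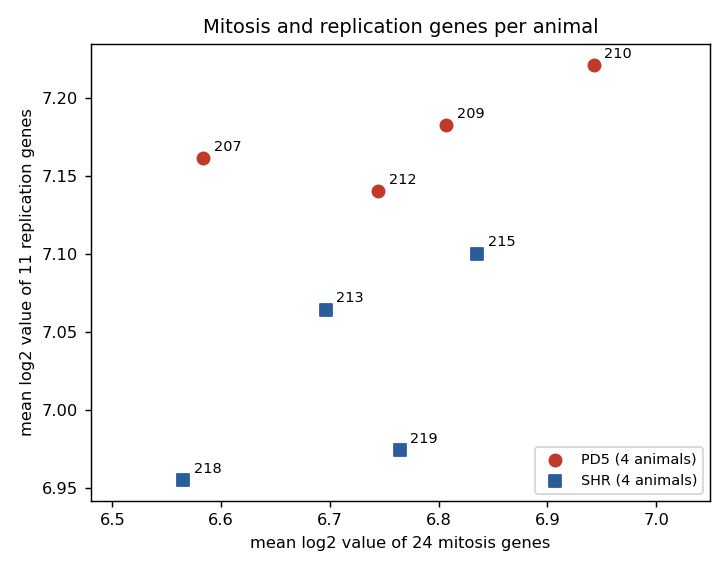
Mean log2 value of 24 mitosis genes (horizontal axis) and of 11 replication genes (vertical axis) in each animal, labelled by its number. PD5 (circles) and SHR (squares) overlap along the mitosis axis and not along the replication axis.

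The 2 means ran in parallel to some extent, with a Pearson r of 0.52 over 8 animals and 0.30 without PD5 210, given as descriptions. Within the 4 PD5 animals r was 0.76, and within the 4 SHR animals 0.68. PD5 207 had the mitosis mean next to the lowest (6.58). Its replication mean (7.16) lay above every SHR animal, as did that of each PD5 animal. Among the PD5 animals only PD5 212 had a lower replication mean (7.14). PD5 210 was highest in 15 of the 24 mitosis genes (62.5%, against 14.8% of all genes), and PD5 207 lowest in 11 (45.8%, against 12.3% of all genes). PD5 210 also had the highest mean of the fat markers, whose part in these values was not tested. It was highest in 7 of the 13 measured fat markers (53.8%, against 14.8% of all genes) and lowest in 2, Fabp4 and Cox8b. The brown fat gene Ucp1 was at 9.05 in PD5 210 and between 3.79 and 4.83 in the other animals. The mean of the 13 markers, in which Ucp1 counts, was 7.66 in PD5 210 and between 6.75 and 6.95 elsewhere. Cidea, Cox8b and Fabp4 of that list were high in every sample, between 9.85 and 12.25 in all 8 animals. Without PD5 210 the median r within mitosis was 0.47, and 86.6% of the pairs were above 0.

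Markers of other cells in the tissue were read beside these results. Of 16 thymus and lymphocyte markers 5 were higher in PD5, with list means from 5.85 to 5.94 in PD5 and 5.93 to 5.98 in SHR. Of 10 macrophage markers 1 was higher, with list means from 8.44 to 8.52 in PD5 and 8.55 to 8.77 in SHR, a span that did not overlap and ran against that of the replication genes. Endothelial markers ranged from 9.89 to 9.96 in PD5 and 9.83 to 9.96 in SHR, fibroblast markers from 10.25 to 10.34 and 10.21 to 10.37, and markers of blood from 6.42 to 6.58 and 6.496 to 6.55. Atrial markers ranged from 8.78 to 9.71 in PD5 and 8.14 to 9.94 in SHR. In limma 0 of these markers passed, and their part in the results above was not tested.

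Correlation with Mki67 was computed for the other 42 genes and for every gene on the array, with an exact permutation test over the 40320 orders of the animals. Of the 42, 9 had an r above 0 with an exact permutation p under 0.05, against 2.55% of all 17308 genes. They were the mitosis genes Cdk1, Ccna2, Kif11, Tpx2, Cenpf and Kif20a, the regulators E2f1 and Ccnd1, and Pcna. After adjustment over all genes 0 of 17308 passed, and the smallest adjusted p among the 42 was 0.766 in the exact permutation test. The smallest p that the design allows is 2.48e-05, which is too large for a single gene to pass the adjustment alone.

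Cdk1 had the highest Pearson r of the 42 over 8 animals, at r = 0.93 (exact permutation p = 0.00151, adjusted p = 0.766) and Spearman's rho = 0.93 (exact permutation p = 0.00223, adjusted p = 0.908). Ccna2 was at r = 0.91 (exact permutation p = 0.000843) and rho = 0.90 (exact permutation p = 0.00456). Kif11 was at r = 0.87 (exact permutation p = 0.00330) and Tpx2 at r = 0.81 (exact permutation p = 0.0160), both with rho = 0.95 (exact permutation p = 0.00114). Without PD5 209 and PD5 210, which lay farthest from the median of Mki67, these 4 were at r = 0.70, 0.75, 0.79 and 0.85 over 6 animals. The others of the 9 were between 0.09 and 0.54 there. Over those 6 animals 1 of the 42, Tpx2, had an r above 0 with an exact permutation p under 0.05 (p = 0.0361), a share near the 1.67% of all genes. The other 8 genes did not reach that p without the pair. With 6 animals and the extremes of Mki67 left out, the test cannot say whether their relations held.

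Values with the strain mean taken out are given as descriptions. Here Cdk1, Ccna2, Kif11, Tpx2, Cenpf and Top2a had an r with Mki67 between 0.87 and 0.94. The helicase genes ranged from -0.01 (Mcm3) to 0.48 (Mcm6). Rrm1 was at -0.38, Ccne1 at -0.40 and Cdkn1a at -0.09. Among mitosis genes Aurka (0.09) and Anln (0.19) had the lowest values.

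**Figure D5:**
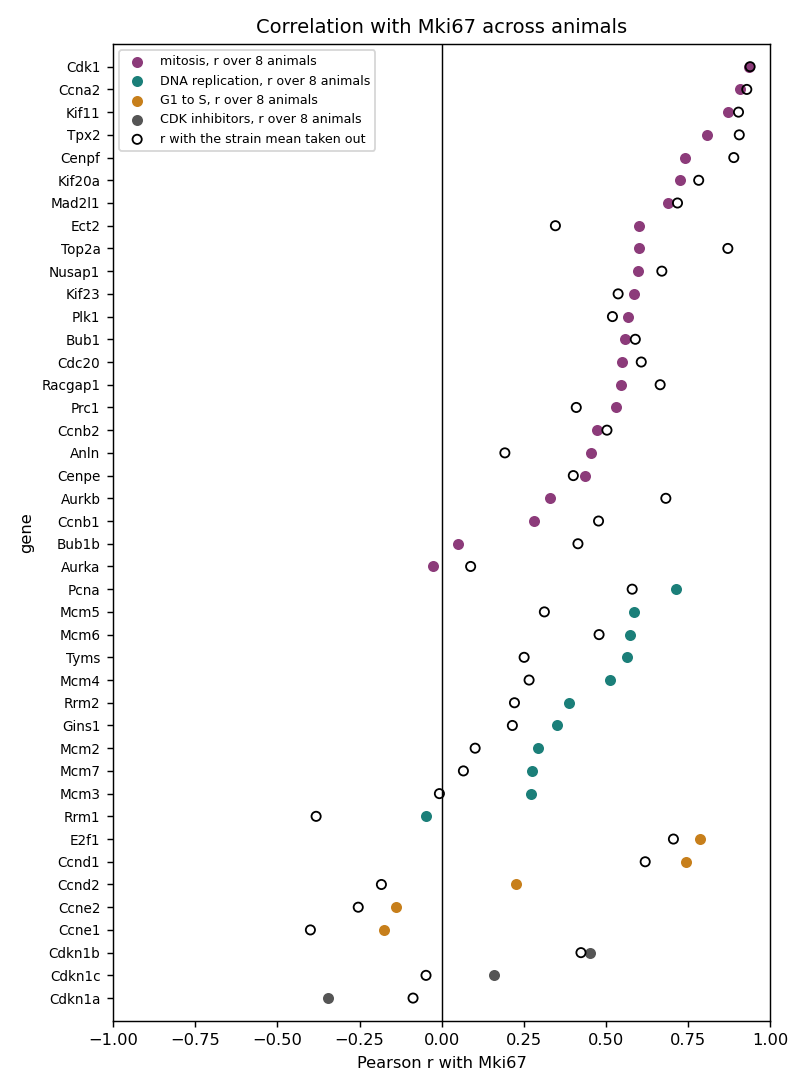
Pearson r of each gene with Mki67 across 8 animals (filled points, coloured by role) and with the strain mean taken out (open circles). Of 23 mitosis genes 17 move right when the strain mean is removed, whereas all 11 replication genes move left. Mki67 and all 11 replication genes were higher in PD5, so this shift is not independent of the strain differences given above.

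Wider lists of cell cycle genes were read in the same fit. Of 56 further mitosis genes 40 were higher in PD5 with a median of 0.07, of 44 further replication genes 32 with a median of 0.07, and of 38 further control genes 22 with a median of 0.01. The mean of the 44 ran from 6.26 to 6.39 in PD5 and from 6.13 to 6.30 in SHR. It thus overlapped between the strains, unlike the mean of the 11 replication genes. In each list 0 passed, and 5 of 56, 2 of 44 and 3 of 38 had an unadjusted limma p under 0.05, shares read against 5.68% of all genes. The 4 with the smallest p in each list were Ckap2 (0.55, adjusted p = 0.538), Kif15 (0.28), Aspm (0.29) and Smc4 (0.15) for mitosis, Tipin (0.29), Rfc4 (0.25, adjusted p = 0.749), Pold1 (-0.21) and Pole2 (0.25) for replication, and Mycn (0.59, adjusted p = 0.184), Cdk2 (0.17), Wee1 (0.16) and E2f8 (0.22) for control. Mycn, a transcription factor of the MYC family, was at 7.25, 7.18, 7.33 and 7.21 in PD5 and 6.76, 6.87, 6.63 and 6.36 in SHR. It did not overlap between the strains, and neither did Ckap2, Aspm, Smc4, Rfc4 and Wee1 of those named; in the whole lists 4 of 56, 1 of 44 and 2 of 38 lay higher without overlap, against 1.58% of all genes.

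The wider mitosis genes also followed the animals. An r above 0.7 with the mean of the 24 mitosis genes was found in 21 of 56 (37.5%), in 8 of 44 further replication genes (18.2%), in 6 of 38 control genes (15.8%) and in 4.91% of all genes. The median r within the 56 was 0.37 and within the 44 was 0.16. Outside all lists, the genes most like that mean over 8 animals were Ccdc102a (r = 0.97), Dusp16 (0.96), Ebpl (0.96), Ninj1 (0.95), Zfp672 (0.95) and Casp6 (0.95), picked out of 17309 genes for that likeness.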

How the data were processed

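Gene expression was measured in left ventricles of 4 PD5 and 4 SHR rats on 8 arrays. The deposited values are log2 signals of 220231 probe sets, as the authors deposited them; the submitters' processing notes name Partek 6.6, and the background correction and normalization are not stated there. Array medians lay between 6.93 and 6.98, and values were used as deposited. Probe sets naming 1 gene (166557) were averaged per gene, with symbols updated through the GRCr8 gene table.

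PD5 minus SHR was tested with limma 3.58.1 in R 4.3.3 (lmFit and eBayes, two-sided, Benjamini-Hochberg over 17309 genes, threshold 0.05); no covariate was used, since the strains share no animal number. The code was tested on simulated data. Correlation p-values were adjusted over all genes, not over the members as first planned. Whether animals shared litters is not stated, so whether the 8 samples are independent is not known. The limma p-values set the strain difference against the spread between animals within a strain, and the number of animals limits the precision. No dim genes were left out. Members and lists were chosen with earlier results of these data known. The promoter letters were chosen after the data were seen, and 1 set was tried. An older symbol was not merged into a symbol already listed; this rule was set after a first version had merged them, to keep the gene count of an earlier treatment of these data, and it touched no member. Values per animal are given for Mki67, the 8 members with the smallest p, the most different member of each role and the 3 inhibitors; other names follow the smallest p per wider list and the highest r with the mitosis mean.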

Additional observations from a re-analysis of the deposited data

Results flagged for a closer look

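Among 86 groups of 4 values of the 43 genes, 6 held an animal far from the other 3 by Dixon's criterion at the 95% level, and chance flags about 1 in 20. PD5 207 was low in Kif23 (5.953, others 6.353 to 6.429) and in Nusap1 (7.308, others 7.61 to 7.621). SHR 218 was low in Kif23 (5.885, others 6.242 to 6.293), in Cdc20 (6.957, others 7.482 to 7.546) and in Pcna (9.087, others 9.233 to 9.261). PD5 212 was low in Mcm7 (7.114, others 7.354 to 7.402). Of these, 5 lie in the 2 animals with the lowest mitosis means, which is partly built in, since Kif23, Nusap1 and Cdc20 enter those means. Among 30 such groups of list means, PD5 210 stood apart in the fat markers (7.661, others 6.751 to 6.847) and in the further control genes (7.663, others 7.553 to 7.566).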

How the results depend on the processing

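No member passed under any of the 17 alternatives, so the count stayed at 0 of 43. The adjusted p of Ect2 ranged from 0.0521 with the lowest 25% of genes left out to 0.995 with the median of the probe sets. The count over all genes, 9, was 1 to 7 with one array left out, 5 with median centring, 47 with trend and robust variance, and 0 with the brightest probe set, with no moderation and without both PD5 210 and SHR 219 (chosen after seeing the data), where 908, 989 and 914 genes had an unadjusted limma p under 0.05. The mitosis median ranged from -0.0157 (without PD5 210; -0.00256 without SHR 218) to 0.1052 with one array left out, and the number of mitosis genes higher in PD5 from 8 (11 without SHR 218) to 21. The replication median, 0.16, was 0.106 with array weights, 0.1061 without PD5 210 and 0.1102 without SHR 218. The 9 genes correlated with Mki67 became 5 to 10 with one array left out, 3 with the median of the probe sets, 4 with the brightest, 5 with the strain mean taken out, 1 without the pair farthest in Mki67 and 4 without PD5 210 and SHR 219. Some of the 730 recomputed differences could not differ from the main fit. These were those with the lowest 25% of genes left out, with trend and robust variance, and with no moderation. Of the 730, 64 changed sign, in 27 members, none of them called before. In 12 of these the value moved by at least 1 SE: with the median of the probe sets Top2a (0.1487), Prc1 (-0.1212), Mcm2 (-0.00125), Ccne1 (-0.2062) and Cdkn1c (-0.0175), with the brightest Mki67 (-0.0275), Ccna2 (-0.145), Aurka (0.135), Mcm4 (-0.0475), Pcna (-0.1375) and Gins1 (-0.115), and without PD5 210 and SHR 219 Rrm2 (-0.015). Where a summary or an array changed a value, the cause was not tested. No paired analysis was possible because the strains share no animal number.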
